A study of Mus musculus with 14 samples.

Results

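Scavenger receptors are described here as a set of 9 genes, Msr1, Colec12, Cd36, Scarb1, Scarb2, Cd68, Mrc1, Cd163 and Stab1, across cell classes of the mouse spinal cord and across 4 genotypes. The genes were chosen by symbol, and all 9 were found among the 55335 genes listed in the files. Their levels in microglia, border-associated macrophages, fibroblasts and endothelium are given first, and then the comparisons between genotypes.

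Scavenger receptors bind modified lipoproteins, lipids, glycans and cell debris and carry them into the cell, mostly to the lysosome. Macrophages use many of them at once, and endothelium and fibroblasts use a few. In the central nervous system the resident macrophages are microglia, in the parenchyma, and border-associated macrophages, in the meninges and around vessels. Msr1 and Colec12 belong to the class A receptors, collagen-like trimers that bind modified lipoproteins. Cd36, a fatty acid and lipoprotein receptor, Scarb1, the receptor for high-density lipoprotein, and Scarb2, which carries glucocerebrosidase to the lysosome, form class B. Cd68 is a lysosomal glycoprotein of macrophages. Mrc1 is the macrophage mannose receptor, Cd163 takes up complexes of haemoglobin and haptoglobin, and Stab1 takes up modified lipoprotein and matrix proteins.

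The study set out to learn what Clec7a, a pattern recognition receptor of myeloid cells, does in microglia at the middle stage of disease in mice that model amyotrophic lateral sclerosis. Spinal cords of mice aged P115-120 (days after birth) were dissociated with enzymes at warm temperature, and 14 single-cell libraries were made with 3' chemistry. Mice of the group SOD1G93A (3 libraries, strain B6SJL-Tg(SOD1*G93A)1Gur/J) carried a mutant human SOD1 transgene, which is driven by its own human promoter and so is not limited to a cell type. The group Clec7a-KO (4 libraries, strain B6.129S6-Clec7atm1Gdb/J) carried a targeted Clec7a allele that is not limited to a cell type. The group SOD1G93A/Clec7a-KO (4 libraries) had both alterations, and nTg (3 libraries) carried neither. The labels number the libraries within a group as replicates and do not say that each came from a separate animal, so that p-values measure the spread between these libraries. The strain names give different backgrounds for the transgene and the knockout, and the labels give no further detail on littermates.

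The deposited matrices held 108892 barcodes and between 28819852 and 141204910 unique molecular identifiers (UMIs, each one captured RNA molecule) per library. Before filters any pair of libraries shared between 2 and 44 barcodes, at most 0.474% of the smaller library. After filters 89225 cells remained. Clec7a in microglia checked the labels: it stood between 36.3 and 100.3 UMIs per 1000000 (CPM) in nTg and between 770.1 and 881 in SOD1G93A, against 0.983 to 3.08 in Clec7a-KO and 1.89 to 3.02 in SOD1G93A/Clec7a-KO. Xist exceeded the Y-linked Ddx3y in 2 nTg libraries, in 1 library of each knockout group and in no SOD1G93A library. Sex and genotype were therefore unevenly mixed, and a fit with this as a covariate is given with the results it changes. Cells were clustered without the 9 genes, and clusters were called microglia-like, endothelium-like and so on from lists of other markers. The suffix is dropped below. Microglia came to 41738 cells (951 to 4845 per library), border-associated macrophages to 662 (18 to 93), endothelium to 11398 (317 to 1293) and fibroblasts to 93 (1 to 16).

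Some cells near these classes were left without a name because another class's genes were among their leading genes. Clusters nearest to microglia of this kind were led by Gpnmb and Mmp12 (2894 cells), by Apoc4, Apoc1 and Apoe (5535 cells) and by haemoglobin genes (1494 cells). The Gpnmb and Apoc4 clusters came almost wholly from transgenic libraries, so microglia as counted here leave out part of those libraries' cells, and calls are given with these clusters added. A cluster led by Abcc9, Vtn and Rgs5 carried endothelial and mural markers together. Border-associated macrophages were a single cluster that was led by H2-Eb1, Pf4, F13a1 and Mgl2 but also by Igkc and Ly6d, genes of B cells. The borders between myeloid clusters depended on the settings of the clustering, and the class is therefore described with B cell markers beside it.

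Sequence upstream of the start was available for 6 of the 9 genes from RefSeq on GRCm38.p6 (Cd36, Scarb2, Cd68, Mrc1, Cd163 and Stab1). The 250 bases before the start that RefSeq gives are shown for Cd68, which was high in both macrophage classes, for Cd36, which rose with the transgene in microglia, and for Mrc1 and Cd163, which were nearly limited to border-associated macrophages. Each is written 5′ to 3′ on the strand of the gene. The RefSeq starts are not always the ends of the GENCODE spans given in the next paragraph: the Cd36 window lies wholly inside that span, before a start 52905 bases inside it, as does the Scarb2 window (1176 bases), and the Mrc1 window overlaps its span by 22 bases. Capitals mark matches on either strand to GAGGAA, a core of sites of the macrophage factor PU.1, and to TGANTCA, the AP-1 site.
Cd68, chr11:69666171-69666420, minus strand: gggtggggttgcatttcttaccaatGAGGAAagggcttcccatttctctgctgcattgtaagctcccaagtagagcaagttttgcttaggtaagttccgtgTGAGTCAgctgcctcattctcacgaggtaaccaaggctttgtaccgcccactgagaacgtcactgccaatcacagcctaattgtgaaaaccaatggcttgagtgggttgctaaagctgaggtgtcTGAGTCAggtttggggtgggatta
Cd36, chr5:17835897-17836146, minus strand: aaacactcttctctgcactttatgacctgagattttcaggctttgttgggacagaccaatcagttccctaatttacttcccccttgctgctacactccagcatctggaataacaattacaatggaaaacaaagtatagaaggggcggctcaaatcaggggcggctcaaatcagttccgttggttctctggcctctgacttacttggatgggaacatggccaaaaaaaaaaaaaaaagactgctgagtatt
Mrc1, chr2:14229164-14229413, plus strand: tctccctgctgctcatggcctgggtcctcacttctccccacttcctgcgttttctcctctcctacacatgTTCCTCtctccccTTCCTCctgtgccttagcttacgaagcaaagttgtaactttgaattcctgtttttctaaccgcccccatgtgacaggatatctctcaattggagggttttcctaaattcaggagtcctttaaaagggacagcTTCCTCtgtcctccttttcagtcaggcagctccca
Cd163, chr6:124304401-124304650, plus strand: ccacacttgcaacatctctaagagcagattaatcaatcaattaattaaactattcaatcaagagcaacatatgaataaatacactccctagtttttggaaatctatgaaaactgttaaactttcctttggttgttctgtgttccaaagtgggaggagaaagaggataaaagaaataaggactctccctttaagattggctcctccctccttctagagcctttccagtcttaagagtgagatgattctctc
The Cd68 window held 1 GAGGAA, which begins 225 bases before the start, and the AP-1 match TGAGTCA at 149 and 24 bases before it. The Mrc1 window held the reverse complement TTCCTC 3 times, at 180, 167 and 35 bases. The Stab1 window, not shown, held GAGGAA once at 30 bases, and the windows of Cd36, Cd163 and Scarb2 held neither motif. The E-box CACGTG was in none of the 6. Over all 32851 RefSeq promoters of this length, 23.3% held GAGGAA, 6.75% TGANTCA and 6.02% CACGTG, so a match alone is common. A match describes these letters and is not a measured binding site.

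The 9 genes are protein coding and lie apart from each other, and 3 of them share chromosome 5. Positions are on GRCm38 in the GENCODE vM21 annotation, in which 54587 of the 55335 gene identifiers were found. Msr1 lies at chr8:39581685-39642673 on the minus strand with 10 exons in its longest transcript, and Colec12 at chr18:9707595-9882644 on the plus strand with 11. Cd36 lies at chr5:17781690-17888801 (minus strand, 16 exons), Scarb1 at chr5:125277087-125341094 (minus, 13 exons) and Scarb2 at chr5:92441314-92506833 (minus, 12 exons). Cd68 is a short gene at chr11:69664213-69666153 (minus, 6 exons). Mrc1 lies at chr2:14229392-14332057 (plus, 30 exons), Cd163 at chr6:124304656-124330527 (plus, 17 exons) and Stab1 at chr14:31139013-31168641 (minus, 69 exons). Stab1 overlaps the coding gene Nt5dc2 on the opposite strand. Colec12 holds the processed pseudogene Gm7497 on its own strand, so counts of these 2 genes may be split between them.

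Mrc1 and Cd163 were found almost only in border-associated macrophages. Levels by class are CPM, with all UMIs of the class in a library as the total, averaged over the 14 libraries. They are compared between classes and not between genes. Mrc1 stood at 965 ± 395 CPM (SD, n = 14) in border-associated macrophages and at 0.558 ± 0.276 in microglia. Cd163 stood at 210.1 ± 153 in border-associated macrophages, while all 41738 microglia together held 17 Cd163 UMIs. Both genes are textbook markers of border-associated macrophages and were not among the markers used to name this class. Thinned to 1000 UMIs per cell, 47.3% of border-associated macrophages had a Mrc1 UMI and 14.5% a Cd163 UMI, against 0.0527% and 0 of 41738 cells in microglia. The median depth was 5472 UMIs per cell in border-associated macrophages and 10061.5 in microglia.

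Stab1 was shared more widely. It stood at 642 ± 197 CPM (SD, n = 14) in border-associated macrophages, 80.2 ± 21.6 in microglia and 58.8 ± 8 in endothelium. With the coarser clusters of Leiden resolution 0.5 border-associated macrophages stood at 420.5. On the log2 scale border-associated macrophages exceeded microglia by 2.91 ± 0.49 (SD over 14 libraries) and did so in 14 of 14. Microglia and endothelium differed by 0.38 ± 0.46, with microglia higher in 10 of 14, so their order lay within the spread. Endothelium is a known site of this receptor, and in these cells 4.99% had a Stab1 UMI after thinning, against 0.230% of oligodendrocyte precursors, a type not known for it (median depth 7472 UMIs, against 6636 in endothelium).

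Cd36 and Msr1 were highest in border-associated macrophages. Cd36 stood at 171 ± 101 CPM (SD, n = 14) there, at 4.97 ± 3.44 in microglia and at 0.270 ± 0.280 in endothelium. Border-associated macrophages exceeded microglia by 4.02 ± 1.24 on the log2 scale in 14 of 14 libraries. Endothelium of many tissues is known to carry Cd36, but 0.0263% of endothelial cells here had a Cd36 UMI after thinning. Msr1 stood at 88.9 ± 40.6 CPM in border-associated macrophages and 13.6 ± 13.1 in microglia, a gap of 2.59 ± 1.37 on the log2 scale seen in 14 of 14 libraries. In endothelium Msr1 was at 0.383 ± 0.647, and at 3.44 with doublets kept, while Cd36 there became 0.963.

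Colec12 marked stromal cells. Over the 93 fibroblasts pooled it came to 440 UMIs, or 869.9 CPM (exact Poisson 95% interval 790.5 to 955, for counting error only). Mural cells, the pericytes and smooth muscle of vessels, stood at 338 ± 79.1 CPM (SD, n = 14). Border-associated macrophages followed at 51.6 ± 29.0, astrocytes stood at 20.6 ± 6.31, microglia at 17.9 ± 19.0 and endothelium at 6.87 ± 1.45. Mural cells exceeded border-associated macrophages by 2.71 ± 0.85 on the log2 scale in 14 of 14 libraries. The step from border-associated macrophages to microglia, 1.75 ± 1.88, lay within the spread, which for microglia is mostly a spread between genotypes.

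Scarb1 was an endothelial gene in this tissue. It stood at 204 ± 23.0 CPM (SD, n = 14) in endothelium, 61.9 ± 9.22 in ependymal cells, 46.3 ± 18.0 in mural cells, 24.4 ± 14.2 in border-associated macrophages and 17.4 ± 4.78 in microglia. Endothelium exceeded ependymal cells by 1.65 ± 0.24 on the log2 scale in 14 of 14 libraries, and ependymal and mural cells did not differ beyond their spread. Scarb2 was present in every class. Among the classes with at least 12 libraries it was highest in astrocytes, at 194 ± 29.7 CPM, followed by microglia at 166 ± 12.9, ependymal cells at 109.8 ± 12.2 and border-associated macrophages at 104 ± 32.5. Mural cells, oligodendrocyte precursors, endothelium, T and NK cells and neurons had means between 67.1 and 79.2. Fibroblasts, of which 2 libraries held at least 10, stood at 172 ± 25.2 there and at 130.5 pooled (exact Poisson 95% interval 101 to 166), and are not placed in the order. Astrocytes exceeded microglia by only 0.21 ± 0.17 on the log2 scale, in 13 of 14 libraries.

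Cd68 was high in both macrophage classes, and the order of the class means differed between the groups with and without the transgene. Over all genotypes it stood at 708 ± 309 CPM in microglia and 699 ± 184 in border-associated macrophages (SD, n = 14), and microglia were higher in 7 of 14 libraries. In nTg it stood at 436 ± 40.8 in microglia and 636 ± 106 in border-associated macrophages (n = 3), and in Clec7a-KO at 419 ± 51.2 and 578 ± 142 (n = 4). In SOD1G93A it stood at 890.4 ± 134 and 773 ± 278 (n = 3), and in SOD1G93A/Clec7a-KO at 1065 ± 95.3 and 812 ± 145 (n = 4). Border-associated macrophages were higher in 3 of 3 nTg and 3 of 4 Clec7a-KO libraries, and microglia in 2 of 3 SOD1G93A and 4 of 4 SOD1G93A/Clec7a-KO libraries. This split was not tested. T and NK cells stood at 203 ± 231 (n = 12) and endothelium at 19.0 ± 15.4, which became 117 with doublets kept. Fibroblasts had 0 UMIs of Msr1 and of Cd163, which for their pooled depth allows up to 7.29 CPM at the upper 95% Poisson limit.

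**Figure D1:**
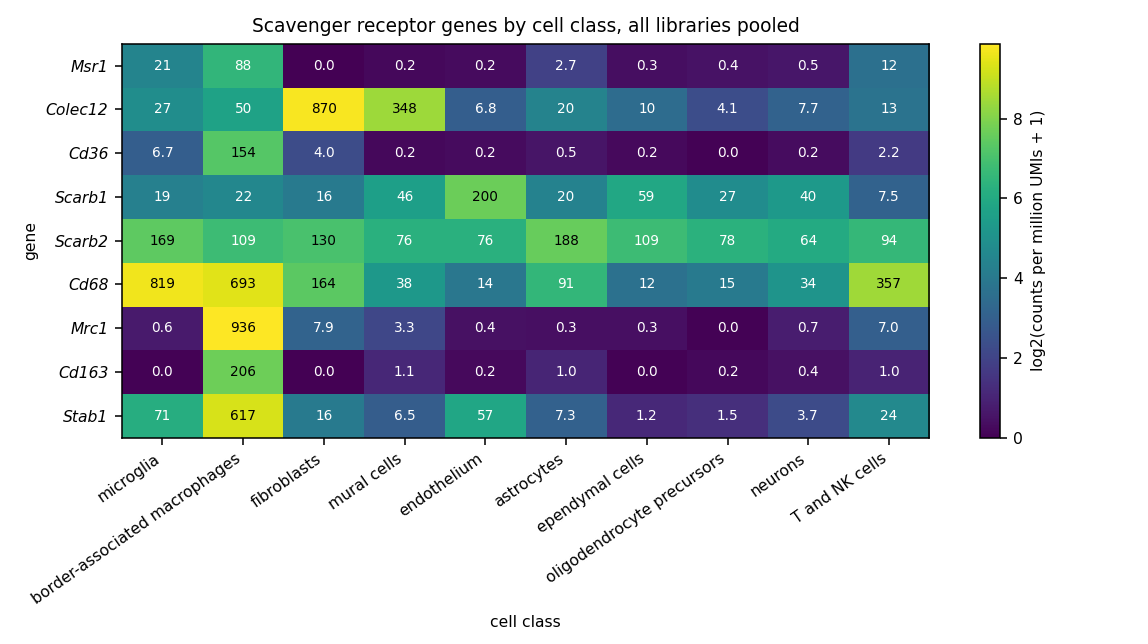
Pooled levels of the 9 genes in 10 cell classes. Columns are classes, rows are genes, colours show log2(CPM + 1) and the printed values are CPM over all libraries together. Mrc1, Cd163, Stab1, Cd36 and Msr1 peak in border-associated macrophages, Colec12 in fibroblasts and mural cells, Scarb1 in endothelium, and Cd68 is high in both macrophage classes.

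The genes whose pattern over 11 classes (those of the heat map and neutrophils) was closest to each receptor were found by Pearson correlation of mean log2(CPM + 5), which is a description over class means that share libraries. Mrc1 was closest to Mgl2 (0.998), Cd209f (0.997) and Clec10a (0.997), lectins that were among the markers of border-associated macrophages. Cd163 was closest to Igkc, Fcrla and Spib (0.999 each). These are genes of B cells, and B cell markers were counted in the same class as Cd163, so a class mean cannot tell them apart. Cd36 was closest to H2-Aa (0.992), an MHC class II chain, Lilra5 (0.985) and Ccl24 (0.982). Msr1 was closest to Arhgap19 (0.979), Gm6377 (0.978) and Tnip3 (0.977). Cd68 was closest to Pld4 (0.992), Blnk (0.990) and P2ry6 (0.988), and Stab1 to Gm44751 (0.971), Lyl1 (0.967) and Gpr160 (0.945). Colec12 was closest to Gm7497 (0.979), the pseudogene inside it, to the complement gene C1ra (0.953) and to the matrix gene Emilin1 (0.947). Scarb1 was closest to Gpkow (0.942), Gm37788 (0.938) and Slc30a1 (0.932), and Scarb2 to Derl1 (0.897), Agmo (0.890) and Ctsf (0.889), a lysosomal protease.

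In microglia 6 of the 9 receptors were higher with the SOD1G93A transgene, both with and without Clec7a. Colec12, Msr1 and Cd36 were all near 0 in nTg microglia and rose most on the log2 scale. Cd68 rose from an already high level, and Scarb1 and Scarb2 rose least on that scale. Stab1 and Mrc1 did not pass the test, and Cd163 was too low to be tested. Values between genotypes are CPM scaled by TMM factors, edgeR's correction for library composition. Tests are edgeR quasi-likelihood tests on UMIs summed per library and class, with p-values adjusted by Benjamini-Hochberg over all genes tested. In this class 30.9% of 16558 genes passed an adjusted p of 0.05 for SOD1G93A against nTg, and 44.1% for SOD1G93A/Clec7a-KO against Clec7a-KO. Of all genes 18.6% were higher and 12.3% lower against nTg, and 24.4% and 19.7% within the knockout. The members' 6 of 8 tested stand beside these shares, and in such a strong contrast a call alone is common. The share of all genes whose groups did not overlap was not counted, so a lack of overlap below is a description. The 2 comparisons have no library in common. The median mitochondrial share per barcode, over all cell types of a library, also differed without overlap: it was 1.473% to 2.154% in SOD1G93A and 2.605% to 4.461% in nTg, and 0.889% to 1.581% in SOD1G93A/Clec7a-KO and 1.898% to 4.601% in Clec7a-KO. Its part in the results was not tested.

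Colec12 in microglia stood at 0.510, 0.981 and 0.792 CPM in nTg and at 0.822, 0.437, 0.584 and 0.313 in Clec7a-KO. In SOD1G93A it stood at 33.1, 36.4 and 49.6, and in SOD1G93A/Clec7a-KO at 53.1, 34.0, 54.2 and 26.8. Every transgenic library was above every library without the transgene. The log2 fold change was 5.76 ± 0.37 (SE) for SOD1G93A against nTg (edgeR, adjusted p = 4.77e-07) and 6.20 ± 0.33 within the knockout (adjusted p = 4.22e-08). Before thinning 21.0% of SOD1G93A microglia had a Colec12 UMI, against 0.830% in nTg, and at 1000 UMIs per cell the shares were 2.61% and 0.0944%. In oligodendrocyte precursors, a type not known for it, the thinned share was 0.282% in SOD1G93A and 0.351% in nTg (median depth 7472 UMIs per cell), so the share in nTg microglia was not above it.

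Msr1 in microglia stood at 2.99, 0.817 and 0.792 CPM in nTg and at 0.670, 2.40, 2.59 and 2.35 in Clec7a-KO. It reached 23.4, 45.1 and 37.4 in SOD1G93A and 24.9, 27.8, 23.5 and 24.2 in SOD1G93A/Clec7a-KO. The groups with and without the transgene did not overlap. Msr1 rose by 4.40 ± 0.49 on the log2 scale (SE, edgeR, adjusted p = 1.95e-05) against nTg and 3.70 ± 0.42 (adjusted p = 1.19e-05) against Clec7a-KO. The share of cells with a UMI, thinned, was 0.170% in nTg, 0.178% in Clec7a-KO, 2.19% in SOD1G93A and 1.60% in SOD1G93A/Clec7a-KO. In oligodendrocyte precursors it was 0.0942% in SOD1G93A, 0.117% in SOD1G93A/Clec7a-KO, 0 of 855 cells in nTg and 0 of 1144 in Clec7a-KO. These counts of 0 allow up to 0.351% and 0.262%, above the shares in microglia of those groups.

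Cd36 in microglia stood at 0.733, 0.872 and 1.58 CPM in nTg and at 1.58, 2.37, 2.27 and 1.95 in Clec7a-KO. It stood at 6.49, 11.5 and 9.45 in SOD1G93A and at 8.92, 7.29, 13.7 and 9.23 in SOD1G93A/Clec7a-KO. Even in the transgenic groups this was far under the level of border-associated macrophages. It was higher by 3.18 ± 0.33 on the log2 scale (SE, edgeR, adjusted p = 1.08e-05) against nTg and 2.26 ± 0.27 (adjusted p = 1.62e-05) against Clec7a-KO.

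Cd68 in microglia stood at 317, 386 and 385 CPM in nTg and at 356, 323, 313 and 475 in Clec7a-KO. It stood at 1106, 980.3 and 899 in SOD1G93A and at 1077, 1334, 1522 and 1275 in SOD1G93A/Clec7a-KO. The lowest transgenic library was above the highest library without the transgene. Cd68 rose by 1.46 ± 0.20 on the log2 scale (SE, edgeR, adjusted p = 9.31e-05) against nTg and 1.83 ± 0.17 (adjusted p = 2.13e-06) against Clec7a-KO. At 1000 UMIs per cell 34.0% of nTg microglia and 53.1% of SOD1G93A microglia had a Cd68 UMI.

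Scarb1 in microglia stood at 11.4, 10.1 and 11 CPM in nTg and at 12.4, 11, 9.86 and 15.6 in Clec7a-KO, against 27.3, 22.3 and 18.6 in SOD1G93A and 28.4, 22.5, 28.0 and 27.5 in SOD1G93A/Clec7a-KO. The log2 fold changes were 1.06 ± 0.18 (SE, edgeR, adjusted p = 0.000591) and 1.13 ± 0.16 (adjusted p = 6.93e-05). Scarb2 moved from 127, 129 and 132 CPM in nTg to 202, 198 and 188 in SOD1G93A, and from 137, 136, 126 and 148 in Clec7a-KO to 192, 202, 228 and 244 in SOD1G93A/Clec7a-KO. The groups did not overlap for either gene. The log2 fold change of Scarb2 was 0.60 ± 0.13 (SE, edgeR, adjusted p = 0.00274) and 0.66 ± 0.11 (adjusted p = 0.000287).

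Stab1 in microglia overlapped between genotypes. It ranged from 76.8 to 90.5 CPM in nTg, 66.5 to 97.6 in Clec7a-KO, 58.9 to 93.7 in SOD1G93A and 54.7 to 85.5 in SOD1G93A/Clec7a-KO. Its log2 fold change of -0.17 ± 0.20 against nTg (edgeR, adjusted p = 0.537) and -0.18 ± 0.17 against Clec7a-KO (adjusted p = 0.412) did not pass. Mrc1 stayed between 0.156 and 1.18 CPM in all 14 libraries, with a log2 fold change of 0.71 ± 0.56 (adjusted p = 0.359) and -0.11 ± 0.50 (adjusted p = 0.870). The calls of Scarb2 and Stab1 depend on the scaling. With library totals in place of TMM factors the median of all genes moved by -0.43 and -0.48 on the log2 scale in these 2 comparisons. Scarb2 then stood at 0.17 (edgeR, adjusted p = 0.246) and 0.17 (adjusted p = 0.155), and Stab1 at -0.59 (adjusted p = 0.0425) and -0.65 (adjusted p = 0.0105), so that Scarb2 lost its call and Stab1 gained one. The split of all genes called moved likewise, from 3079 higher and 2030 lower to 1458 and 5422 against nTg, and from 4035 and 3269 to 1839 and 7360 within the knockout.

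**Figure D2:**
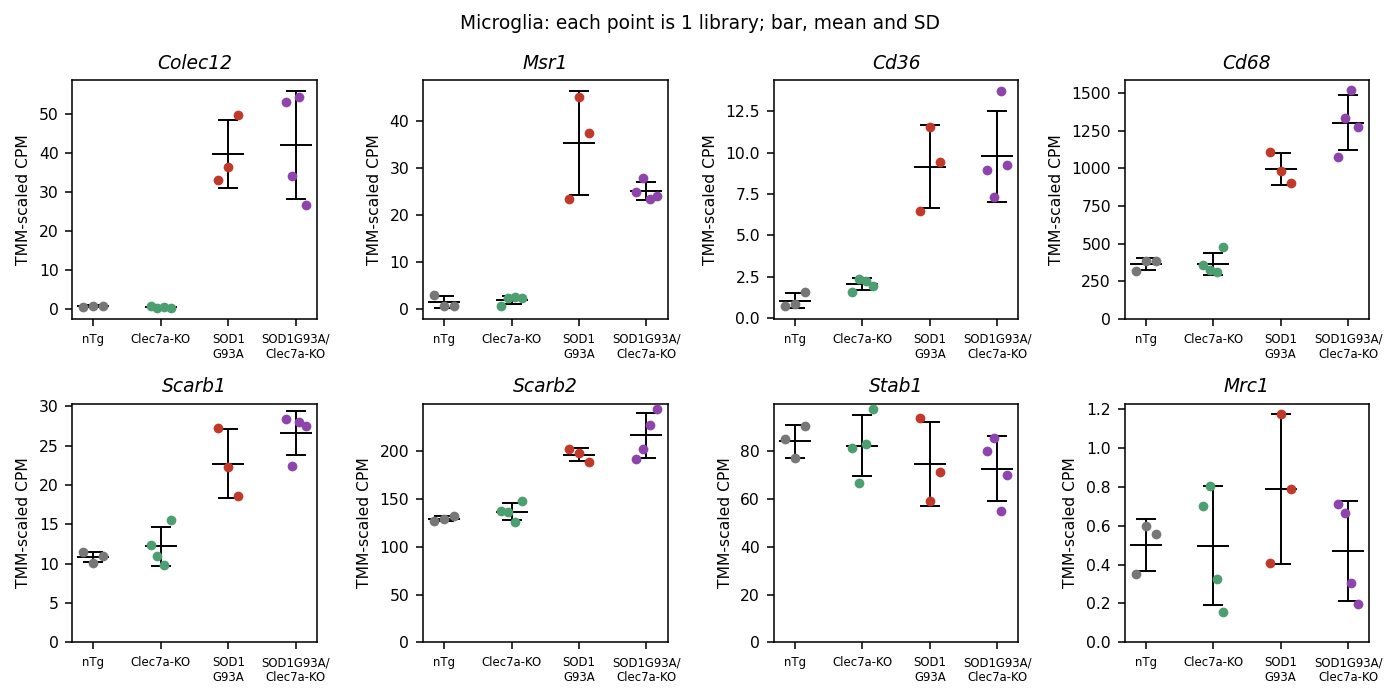
Levels of 8 receptors in microglia by library, as TMM-scaled CPM; each point is a library and the bars give the mean and SD of the group. Colec12, Msr1, Cd36, Cd68, Scarb1 and Scarb2 are separated by the transgene, while Stab1 and Mrc1 overlap. The share of all genes separated in this way was not counted.

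Adding the unnamed clusters nearest to microglia changed no call. With them the log2 fold changes against nTg were 5.79 for Colec12, 4.63 for Msr1, 3.19 for Cd36, 1.60 for Cd68, 1.06 for Scarb1 and 0.62 for Scarb2. Within the knockout they were 6.46, 4.02, 2.19, 2.00, 1.09 and 0.71 in the same order. Mean levels over the 14 libraries then stood at 20.7 CPM for Colec12, 16.1 for Msr1 and 762 for Cd68.

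Markers of other cells moved with the transgene in microglia and are given here for comparison. The 10 markers of border-associated macrophages summed to 1.78 CPM in nTg (1.75 to 1.80) and 2.85 in Clec7a-KO (1.77 to 3.98), and to 51.9 in SOD1G93A (27.8 to 66.7) and 49.3 in SOD1G93A/Clec7a-KO (36.9 to 59.0). Of these 10, 3 passed the count filter, and their estimates against nTg were 7.13 for Ms4a7, 5.46 for Pf4 and 2.86 for Folr2 on the log2 scale. A marker near 0 in nTg enters the test through the transgenic libraries, so their number is not read. Monocyte markers summed to 9.53 and 18.3 CPM without the transgene and to 168 in SOD1G93A and 168 in SOD1G93A/Clec7a-KO. In microglia there were 0.680 Colec12 UMIs and 0.527 Msr1 UMIs per UMI of the border-associated macrophage markers, whereas in border-associated macrophages themselves there were 0.0156 and 0.0274. For Cd36 the 2 ratios were nearer to each other, at 0.166 in microglia and 0.0477 in border-associated macrophages. Mrc1 and Cd163 stayed near 0 in microglia of every genotype. The part of macrophages of other origin in the result was not tested. The 12 microglia markers summed to between 28376 and 39617 CPM in the transgenic libraries and 28792 to 33851 in the others, with 3 of 12 higher (C1qa, C1qb and Trem2) and 5 lower (P2ry12, Tmem119, P2ry13, Sall1 and Siglech) for SOD1G93A against nTg.

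Among microglial clusters the receptors did not all peak in the same cluster, though Colec12, Msr1 and Cd68 were all highest in 1 unnamed cluster, given below. Levels in the clusters are described without a test, as plain CPM (mean ± SD over libraries with at least 20 cells in the cluster). The orders given are of these means, and many neighbours lie within their SD of each other. The cluster led by Crybb1 and P2ry12, both genes of homeostatic microglia, had 10888 cells and the lowest Colec12 and Msr1 of the clusters shown, at 1.22 ± 0.981 and 2.18 ± 1.38 CPM, with Cd36 at 0.397 ± 0.873. Stab1 was high in it, at 104 ± 16, and in a second Crybb1 cluster led by Tsix and Xist, at 119.5 ± 46.6. The share of cells in that second cluster differed widely between libraries of the same genotype. The cluster led by Il12b and Acod1, genes of inflammatory activation, had the highest Cd36 (17.2 ± 13.1), with Msr1 at 41.9 ± 17.7 and Colec12 at 34.0 ± 24.6. The cluster led by Lpl and Il4i1 had Colec12 at 53.7 ± 17.0, the highest mean among the clusters named microglia. Its Cd68, at 1161 ± 188, and that of the dividing cells, at 1101 ± 319, lay within their spread of each other. The cluster led by Ccl12 and Dusp2 had Colec12 at 6.95 ± 7.76 and Msr1 at 5.10 ± 4.10. Dividing cells, led by Mki67 and Top2a, had the highest Scarb1, at 30.1 ± 11.3. Scarb2 ranged from 141 ± 13.3 in the cluster led by H2-Aa and Cd74 to 196 ± 25.6 in the interferon cluster led by Ifit2 and Ifit3.

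Of the unnamed clusters, the 1 led by Gpnmb and Mmp12 had the highest Colec12 (72.4 ± 14.1 CPM), Msr1 (71.5 ± 11.9) and Cd68 (1673 ± 225) of all clusters shown. Its Cd36, at 8.48 ± 3.28, lay above the mean of the Crybb1, P2ry12 cluster and below that of the Il12b, Acod1 cluster. The Apoc4 cluster had Colec12 at 45.1 ± 14.7, Msr1 at 22.7 ± 4.92, Cd68 at 1297 ± 156 and Cd36 at 4.78 ± 1.70. The haemoglobin cluster had Colec12 at 4.12 ± 6.80 and Cd68 at 589.9 ± 252.

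**Figure D3:**
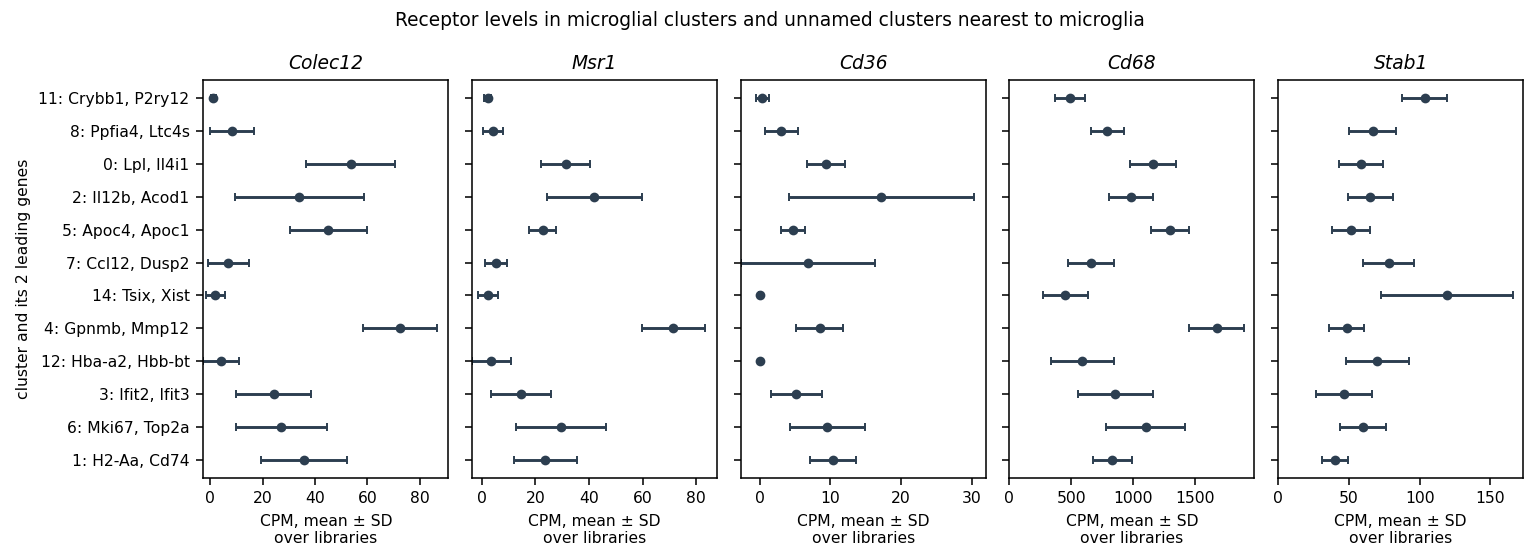
Levels of 5 receptors in 9 microglial clusters and the 3 unnamed clusters nearest to them (numbers 4, 5 and 12), as CPM. Points give the mean and bars the SD over libraries with at least 20 cells of the cluster. The axes extend below 0 where a bar does. Colec12, Msr1 and Cd68 are highest in the Gpnmb, Mmp12 cluster, Cd36 in the Il12b, Acod1 cluster, and Stab1 in the Crybb1 and Tsix clusters.

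Different clusters held most microglia in different genotypes. The Crybb1, P2ry12 cluster and the Tsix, Xist cluster together held most cells without the transgene. The Il12b, Lpl, Ppfia4 and Ccl12 clusters held most of the named microglia with it. Of microglia with the unnamed clusters added, the Tsix, Xist cluster held 1.875% to 67.3% in nTg libraries and 0.177% to 64.6% in Clec7a-KO libraries. Xist exceeded Ddx3y in 2 nTg libraries and 1 Clec7a-KO library, and the part of sex in this share was not tested. Within the Crybb1, P2ry12 cluster, which had cells of every library, Colec12 stood at 0.949 ± 0.360 CPM in nTg (SD, n = 3), 0.637 ± 0.389 in Clec7a-KO (n = 4), 0.711 ± 0.999 in SOD1G93A (n = 3) and 2.37 ± 0.848 in SOD1G93A/Clec7a-KO (n = 4). SOD1G93A and nTg differed by less than their spread there, while the lowest SOD1G93A/Clec7a-KO library, at 1.47, lay above the highest Clec7a-KO library, at 1.06. Cd68 in the same cluster stood at 421 ± 39.9, 388 ± 41.3, 504 ± 102 and 623 ± 98.1 CPM in that order. The lowest of the 4 SOD1G93A/Clec7a-KO libraries, at 553 CPM, lay above the highest Clec7a-KO library, at 439, and SOD1G93A and nTg overlapped. These differences within a cluster were not tested.

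No receptor in microglia passed the test for loss of Clec7a. With the transgene, SOD1G93A/Clec7a-KO against SOD1G93A, 0 of 8 tested receptors and 0.0181% of all genes passed. Cd68 came nearest, at 0.39 ± 0.18 on the log2 scale (edgeR, adjusted p = 0.470), with 1077 to 1522 CPM in the 4 double-altered libraries and 899 to 1106 in the 3 of SOD1G93A. Colec12 differed by 0.08 ± 0.26 (adjusted p = 0.902), Msr1 by -0.49 ± 0.38 (adjusted p = 0.590) and Cd36 by 0.09 ± 0.26 (adjusted p = 0.892). Scarb1 differed by 0.23 ± 0.17 and Scarb2 by 0.14 ± 0.12. Without the transgene, Clec7a-KO against nTg, 0 of 8 and 0.0242% of all genes passed. Cd36 came nearest, at 1.01 ± 0.33 (adjusted p = 1.00). The test of the difference between the transgene effects with and without Clec7a also called 0 of 8, with Cd36 nearest at -0.92 ± 0.42 (adjusted p = 1.00). Over all genes this test called 0 by edgeR, with 314 at an unadjusted p under 0.05, and 2 by DESeq2.

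**Figure D4:**
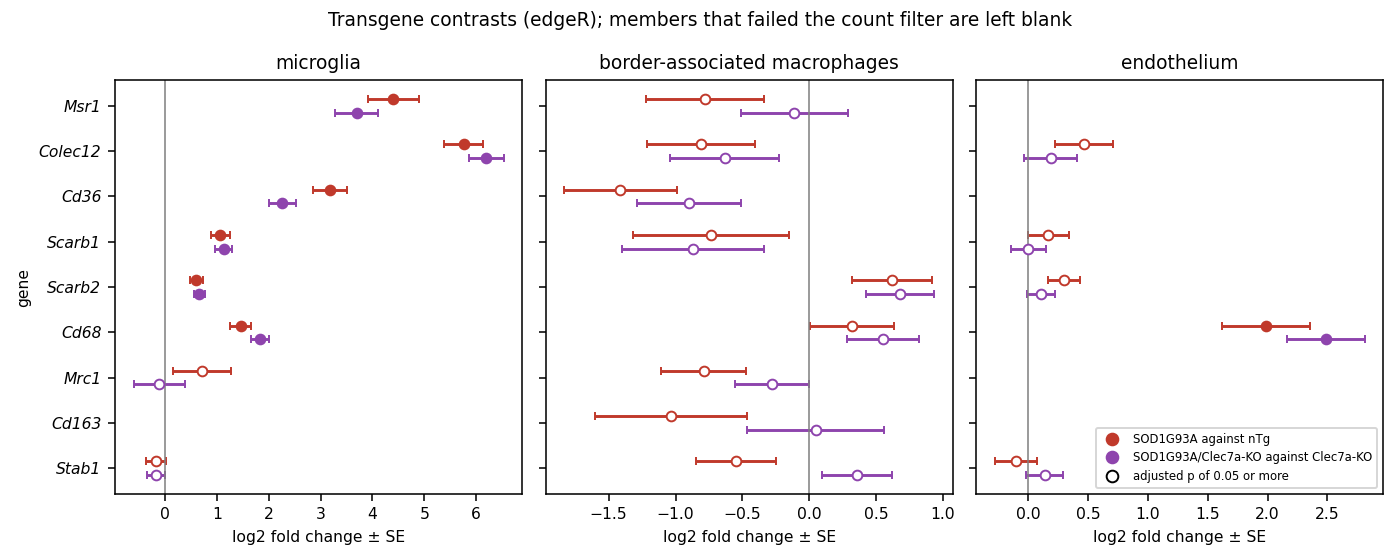
Log2 fold changes with the transgene (edgeR, ± SE) in microglia, border-associated macrophages and endothelium; filled points have an adjusted p under 0.05, and genes that failed the count filter have no point. In microglia 6 receptors are to the right of 0 in both comparisons, in border-associated macrophages no point is filled and Cd36 is lowest in both, and in endothelium Cd68 stands apart.

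In border-associated macrophages 0 of the 9 receptors passed the test for the transgene. Over all 5137 genes tested in this class 0.195% passed for SOD1G93A against nTg and 0.331% for SOD1G93A/Clec7a-KO against Clec7a-KO. By edgeR 492 and 592 of these genes had an unadjusted p under 0.05, and DESeq2 called 0 members in both comparisons. The class held few cells, and on simulated counts its test recovered fewer changes of 1 on the log2 scale than the test in microglia, so an effect of the size seen for Scarb1 in microglia could be missed.

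Cd36 had the lowest estimate. It stood at 477, 300.02 and 184 CPM in nTg and at 148, 144 and 77.5 in SOD1G93A, which did not overlap, and at 195, 169, 238 and 200.2 in Clec7a-KO and 87.5, 47.2, 111 and 211 in SOD1G93A/Clec7a-KO, which did. Its log2 fold change was -1.41 ± 0.42 (SE, edgeR, adjusted p = 0.227) against nTg and -0.90 ± 0.39 (adjusted p = 0.381) against Clec7a-KO. With Xist above Ddx3y as a covariate the estimates were -0.99 (edgeR, adjusted p = 0.658) and -0.94 (adjusted p = 0.315). Over single libraries left out Cd36 against nTg ranged from -1.69 (without nTg replicate 3) to -0.96 (without nTg replicate 1). Within the knockout it ranged from -1.30 (without SOD1G93A/Clec7a-KO replicate 4) to -0.61 (without SOD1G93A/Clec7a-KO replicate 2). Cd36 passed against nTg without the filter on low counts (-1.31, edgeR, adjusted p = 0.0150). It passed in both comparisons with the coarser clusters of resolution 0.5 (-2.14, edgeR, adjusted p = 0.0143, and -1.86, adjusted p = 0.00897), where the class held 1125 cells. Pooled Mrc1 of the class was then 453 CPM in place of 936, and Cd163 99.6 in place of 206, so the composition of the class was not the same. Thinned to 1000 UMIs, 30.6% of the 85 nTg cells had a Cd36 UMI and 8.63% of the 197 SOD1G93A cells. Cells are pooled over libraries in these shares, and 42 of the 85 came from nTg replicate 1. The shares were not tested.

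The mean summed levels of markers of several cell types differed between the genotypes in this class, and few single markers passed a test. The 10 markers of border-associated macrophages summed to 4789 CPM in nTg (4176 to 5574) and 3394 in Clec7a-KO (2494 to 4233), against 2598 in SOD1G93A (2047 to 3363) and 2993 in SOD1G93A/Clec7a-KO (2706 to 3176). All 10 had an estimate below 0 for SOD1G93A against nTg and 0 passed. Within the knockout 0 passed either, with a median log2 fold change of -0.015. Microglia markers in the same cells summed to means of 11614 and 10123 CPM without the transgene and to 19740.4 in SOD1G93A and 20403 in SOD1G93A/Clec7a-KO. Of 11 microglia markers tested, 0 passed against nTg (median log2 fold change 0.19) and 2 were higher within the knockout (median 0.90). B cell markers summed to 671 CPM in nTg (311 to 884), 845 in Clec7a-KO (15 to 1834), 177 in SOD1G93A (56.4 to 386) and 267 in SOD1G93A/Clec7a-KO (13.4 to 666). Monocyte markers summed to 269, 1318, 379 and 195 CPM in that order. Per UMI of the class markers there were 0.0684 Cd36 UMIs in nTg, 0.0579 in Clec7a-KO, 0.0393 in SOD1G93A and 0.0288 in SOD1G93A/Clec7a-KO. The same ratio for Mrc1 was 0.330, 0.264, 0.317 and 0.248. The part of these marker differences in the levels of this class was not tested.

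Mrc1, the mannose receptor, stood at 2122, 1329 and 1344 CPM in nTg and 837, 1211 and 727 in SOD1G93A, which did not overlap, with a log2 fold change of -0.79 ± 0.32 (edgeR, adjusted p = 0.435). In the knockout it stood at 799.9, 779, 1412 and 834 CPM without the transgene and 857, 982, 604 and 702 with it (-0.28 ± 0.28, adjusted p = 0.747). It passed in both comparisons at resolution 0.5, with the class made up differently as given for Cd36 (-1.61, edgeR, adjusted p = 0.0479, and -1.56, adjusted p = 0.0120). With Xist above Ddx3y as a covariate Mrc1 against nTg was -0.54 (edgeR, adjusted p = 0.791). Over single libraries left out it ranged from -1.01 (without SOD1G93A replicate 2) to -0.51 (without nTg replicate 1). Stab1 stood at 1074, 700.1 and 1036 CPM in nTg and 635 to 655 in SOD1G93A, with no overlap (-0.55 ± 0.30, adjusted p = 0.575), and overlapped in the knockout (0.35 ± 0.26, adjusted p = 0.643). Scarb2 stood at 66.7, 78.6 and 105 CPM in nTg and, with no overlap, at 129, 114.60 and 134 in SOD1G93A (0.62 ± 0.30, adjusted p = 0.529); within the knockout it differed by 0.68 ± 0.25 (adjusted p = 0.279). Without overlap is a description of 3 against 3 libraries and not a call, and the share of all genes without overlap was not counted.

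The remaining receptors overlapped between the groups. Cd163 stood at 741, 200.02 and 125 CPM in nTg and 102 to 220.3 in SOD1G93A (-1.04 ± 0.57, edgeR, adjusted p = 0.575), and the estimate turned to 0.16 without nTg replicate 1, the highest library. Msr1 ranged from 45.9 to 200.2 in nTg and from 45.4 to 92.3 in SOD1G93A (-0.78 ± 0.44, adjusted p = 0.583). Colec12 had log2 fold changes of -0.81 ± 0.40 (adjusted p = 0.535) and -0.63 ± 0.41 (adjusted p = 0.591). Scarb1, with 105 UMIs in all 662 cells, had -0.73 ± 0.59 and -0.87 ± 0.53, and Cd68 0.32 ± 0.31 and 0.55 ± 0.27. For loss of Clec7a 0 of 9 receptors passed in either comparison, where 0.0195% of genes did with the transgene and 0.0195% without it.

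**Figure D5:**
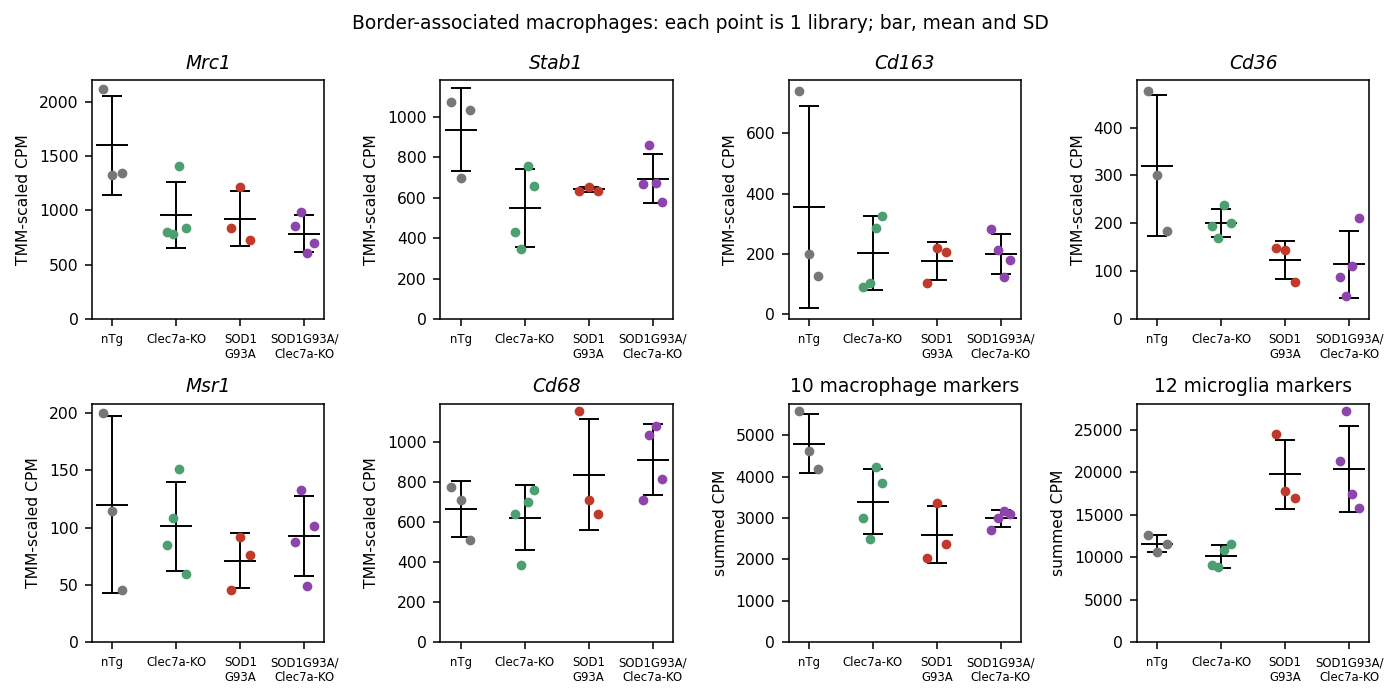
Border-associated macrophages: levels of 6 receptors by library as TMM-scaled CPM, with the summed CPM of the 10 markers of this class and of the 12 microglia markers in the same cells; bars give mean and SD. Mrc1, Stab1 and Cd36 do not overlap between nTg and SOD1G93A, but no receptor passed the test. All 6 overlap between Clec7a-KO and SOD1G93A/Clec7a-KO. The share of all genes without overlap was not counted. The class markers average 4789 CPM in nTg and 2598 in SOD1G93A, and the mean of the summed microglia markers is higher with the transgene.

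In endothelium Scarb1 overlapped between all genotypes. It stood at 171, 188 and 190.4 CPM in nTg, 194, 219.7, 187 and 250.3 in Clec7a-KO, 184, 217 and 216 in SOD1G93A and 172, 191, 239 and 249 in SOD1G93A/Clec7a-KO. The log2 fold change with the transgene was 0.17 ± 0.17 (SE, edgeR, adjusted p = 1.00) and -0.00 ± 0.15 (adjusted p = 0.999), and 0.22 ± 0.16 for Clec7a-KO against nTg (adjusted p = 1.00). Stab1 (-0.11 ± 0.17 and 0.14 ± 0.15), Scarb2 (0.30 ± 0.13 and 0.10 ± 0.12) and Colec12 (0.46 ± 0.24 and 0.18 ± 0.22) did not pass either. Of 13109 genes tested 1.17% and 1.08% passed with the transgene, and 1.14% and 1.01% of all genes were higher. For loss of Clec7a 0 of 5 receptors passed, where 0.00763% of genes did with the transgene and 0 without it (edgeR, 241 at an unadjusted p under 0.05, and 5 by DESeq2). The difference between the transgene effects called 0 of 5 and 0.00763% of genes.

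Cd68 was the 1 receptor of 5 tested that passed in endothelium. It stood at 3.19, 8.43 and 7.42 CPM in nTg and 28.7, 24.7 and 20.9 in SOD1G93A, and at 5.42, 6.91, 4.83 and 9.36 in Clec7a-KO and 39.1, 40.1, 50.4 and 17.1 in SOD1G93A/Clec7a-KO. Neither pair of groups overlapped, and the share of all genes without overlap was not counted in this class. The log2 fold changes were 1.99 ± 0.37 (SE, edgeR, adjusted p = 0.0105) and 2.49 ± 0.33 (adjusted p = 0.000702). The first was lost without SOD1G93A replicate 1 (adjusted p = 0.0542) or without nTg replicate 1 (adjusted p = 0.0537). Cells not known for Cd68 also held its UMIs: pooled oligodendrocyte precursors stood at 3.11 CPM in nTg and 23.9 in SOD1G93A, and pooled ependymal cells at 3.67 and 22.6, against 6 and 24.6 in pooled endothelium. At 1000 UMIs per cell the shares in SOD1G93A were 1.95% in endothelium, 1.69% in oligodendrocyte precursors and 1.93% in ependymal cells. In nTg they were 0.670%, 0.351% and 0.348% in that order. Microglia markers in endothelium summed to 137 CPM in nTg (107 to 174), 289.7 in Clec7a-KO (159.6 to 508), 1033 in SOD1G93A (609.8 to 1508) and 1142 in SOD1G93A/Clec7a-KO (498 to 1580.4). There were 2.44 Cd68 UMIs per 100 microglia marker UMIs in SOD1G93A endothelium and 2.64 in SOD1G93A microglia, and 3.35 and 3.23 in SOD1G93A/Clec7a-KO. Without the transgene the ratio was higher in endothelium, at 4.14 against 1.39 in nTg and 2.13 against 1.28 in Clec7a-KO. The part of RNA from other cells in the endothelial Cd68 was not tested. Msr1 had 0 UMIs in endothelium of all 7 libraries without the transgene and 22 in the other 7.

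Fibroblasts were too few for a test, since only 2 libraries held at least 10 of them. Colec12 was found in every genotype: 104 UMIs in 16 nTg cells, 128 in 25 Clec7a-KO cells, 144 in 29 SOD1G93A cells and 64 in 23 SOD1G93A/Clec7a-KO cells. As pooled levels these were 1445 (1181 to 1751) in nTg, 933 (778 to 1109) in Clec7a-KO, 748 (631 to 881) in SOD1G93A and 614 (473 to 784) in SOD1G93A/Clec7a-KO CPM, with exact Poisson 95% intervals in brackets. The intervals cover counting error only, and between libraries the spread is not known. Scarb2 was present at 66 UMIs in all, while Cd36 had 2 UMIs, Mrc1 4 and Stab1 8. Cd68 had 83 UMIs, all of them in transgenic cells. Those libraries held between 3 and 16 fibroblasts each, and how the UMIs were spread over cells was not counted. Pooled Cd68 was also higher in SOD1G93A than in nTg in endothelium, oligodendrocyte precursors and ependymal cells, as given above. The part of RNA from other cells in the fibroblast Cd68 was not tested.

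Partner genes of the receptors were counted in microglia for SOD1G93A against nTg from 4 lists, beside a median log2 fold change of 0.00 over all genes tested. Over all genes 18.6% were called higher and 12.3% lower in this comparison. The lists were chosen with earlier results known, and a gene near 0 in nTg enters the test through the transgenic libraries, so the counts are descriptions. They were made with TMM factors only. With library totals the median of all genes moved by -0.43 on the log2 scale against nTg and by -0.48 within the knockout. Of 18 other scavenger receptors, 11 were tested, 6 rose and 1 fell (median 0.80). Those with the largest changes were Cd5l (log2 fold change 6.05), a secreted scavenger protein of macrophages, Olr1 (4.69), a receptor for oxidised lipoprotein, Cd44 (2.94), the hyaluronan receptor, and Lrp2 (-2.82), the 1 that fell. Of 14 genes of lipid uptake and storage, 13 were tested, 10 rose and 1 fell (median 2.00). They were led by Fabp4 (5.51) and Fabp5 (4.93), which carry fatty acids, Apoe (5.35) and Lpl (4.07), lipoprotein lipase; Acsl1, an acyl-CoA synthetase, fell (-0.41). Of 14 genes of lysosome and endosome, 14 were tested, 10 rose and 1 fell (median 1.01). Ctsd (2.13) and Ctsb (1.98), lysosomal proteases, Npc2 (1.80) and Grn (1.73) changed most, and Tfe3, a regulator of lysosomal genes, fell (-0.69). Of 9 genes of haem and iron handling, 7 were tested, 5 rose and 1 fell (median 0.99). Fth1 (1.87), a ferritin chain, and the biliverdin reductases Blvrb (1.13) and Blvra (1.03) rose, and Slc40a1, the iron exporter, fell (-1.12).

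In the knockout, where 24.4% of all genes were higher and 19.7% lower, the same lists gave 6 higher and 1 lower of 11, 11 higher and 1 lower of 13, 10 higher and 1 lower of 14 and 5 higher and 1 lower of 7, with medians of 0.55, 1.58, 1.05 and 1.01. For loss of Clec7a, with or without the transgene, 0 genes of these lists passed. Of 14 immediate early and heat shock genes, a sign of dissociation stress, 0 rose and 5 fell with the transgene against nTg (median -0.61), and 0 and 8 within the knockout (median -0.84). Their part in the results was not tested.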

How the data were processed

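Single-cell RNA libraries of 14 spinal cord samples, in 4 groups given by the titles, were used as the authors deposited them. The deposited values are UMI counts per gene and barcode, in matrices of software version 3.0.2 per the file headers. The submitters' processing notes name Cell Ranger, Seurat, DESeq2 and mm10. The members and gene lists were chosen with earlier results of these data known.

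Barcodes with under 500 genes, under 1000 UMIs (7127 together) or over 15% mitochondrial UMIs (4963) were left out, as were 7577 with the highest doublet scores, at a rate of 0.8% per 1000 barcodes, which leaves out 2.49% to 9.90% of a library. Cells were clustered with scanpy 1.11.5 (2000 variable genes without the members, 30 components, Leiden at resolution 1), and clusters were named from marker lists. A first clustering was not stable between numerical settings. In it Cd36 in border-associated macrophages passed the test against nTg, which it does not do here. It was replaced by 1 in double precision with Leiden run to convergence. This choice, a second Leiden seed, the unnamed clusters added to microglia and the rule for fibroblasts (cells of 1 cluster that also fell in the fibroblast cluster at resolution 0.5) were set after seeing the data. Counts were summed per library and class (at least 10 cells) and tested with edgeR 4.0.16 in R 4.3.3 (quasi-likelihood, TMM, filterByExpr, 1 term per group over all 4 groups, Benjamini-Hochberg adjusted p under 0.05). DESeq2 1.42.0 was an alternative. Poisson intervals cover counting error only. All 9 members are named. For gene lists, up to 4 called genes with the largest change were named, and any single gene called in the opposite direction was named after its value was seen. For likeness, the 3 nearest genes of at least 10 CPM in a class were named. On simulated counts for SOD1G93A against nTg, edgeR recovered 51% of genes changed by 1 and 85% changed by 2 on the log2 scale in microglia (16558 genes), 10% and 76% in border-associated macrophages (5137) and 51% and 90% in endothelium (13109). In each class 100 genes were changed by each size. In the data 30.9% of genes were called in microglia and 0.195% in border-associated macrophages. The adjusted p depends on the share of changed genes, so recovery in the data may differ.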

Additional observations from a re-analysis of the deposited data

Results flagged for a closer look

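In border-associated macrophages of Clec7a-KO replicate 3, Mrc1 stood at 1412 CPM, above the other 3 libraries of its group (779 to 834). Msr1 in microglia of Clec7a-KO replicate 1 stood at 0.670 CPM, below the others (2.35 to 2.59), and all 4 values lay below those of the transgenic libraries. Scarb1 in microglia of SOD1G93A/Clec7a-KO replicate 2 stood at 22.5 CPM, below the others (27.5 to 28.4), and all 4 values lay above those of Clec7a-KO. These were 3 of 44 groups of 4 libraries checked, and chance gives such a gap in about 1 in 20 groups.

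Cd36 estimates for the transgene were above 0 in microglia and below 0 in border-associated macrophages. The level in microglia minus that in border-associated macrophages of the same library, on the log2(CPM + 5) scale with CPM scaled by TMM factors within each class, averaged -3.14 in SOD1G93A and -5.64 in nTg, a difference of 2.50. A two-sided exact permutation test over the libraries gave p = 0.1, the smallest that 3 against 3 allows. It averaged -2.84 in SOD1G93A/Clec7a-KO and -4.86 in Clec7a-KO, a difference of 2.01 (two-sided exact permutation p = 0.0286, the smallest that 4 against 4 allows). This comparison was chosen after the values were seen.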

How the results depend on the processing

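In microglia the number of members called was 6, 6, 0, 0 and 0 for the 2 transgene comparisons, the 2 Clec7a comparisons and their difference under every alternative run, including single libraries left out, another Leiden seed and the unnamed clusters added (both chosen after seeing the data). With library totals the called members were not the same ones (Stab1 in place of Scarb2). In border-associated macrophages all comparisons called 0 members, also without single libraries and with another seed. SOD1G93A against nTg called 1 member (Cd36) without the filter on low counts, and each transgene comparison called 2 (Cd36 and Mrc1) at resolution 0.5, where the class held 1125 cells and its pooled Mrc1 was 453 in place of 936 CPM. At that resolution Scarb1 reversed to 0.25 against nTg and Stab1 to -0.76 within the knockout, neither past the test. Cd163 against nTg reversed without nTg replicate 1, and over single libraries left out ranged from -1.43 to 0.16. In endothelium both transgene comparisons called 1 member (Cd68), 0 to 1 without single libraries for SOD1G93A against nTg and 1 within the knockout. Without the filter they called 2 and 3, and the added calls rest on few UMIs. Msr1 (edgeR, adjusted p = 0.0214 and 0.000991) had 0 UMIs in every library without the transgene, 0, 2 and 8 in SOD1G93A and 8, 3, 0 and 1 in SOD1G93A/Clec7a-KO, so its fold is not given. Mrc1 within the knockout (edgeR, adjusted p = 0.0209) had 0, 14, 0 and 0 UMIs with the transgene, all of them in replicate 2, and 2, 3, 0 and 0 without it. Doublets kept gave no value for border-associated macrophages, which then merged with another cluster, and fibroblasts were too few for any test.

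Counts over all genes moved for SOD1G93A against nTg in border-associated macrophages from 10 to 42 with DESeq2, 270 without the filter, 41 with only these groups, 83 at resolution 0.5 and 3 to 24 without single libraries. Within the knockout they moved from 17 to 50, 215, 11, 463 and 3 to 22, with library totals to 6 against nTg and 9 within it, and with the library number to 16 and 32. The Xist covariate gave 4 against nTg. In endothelium the 153 and 142 genes became 473 and 501 without the filter, 142 became 235 with DESeq2, 76 with only these groups and 214 with the library number, and 76 to 174 and 76 to 167 were called without single libraries. In microglia the 3 genes for loss of Clec7a with the transgene became 29 with DESeq2, 13 without the filter and 6 with the library number, and the 4 without the transgene became 9 and 11. Without single libraries they ranged from 3 to 11 (11 without SOD1G93A replicate 1) and from 3 to 7 (7 without nTg replicate 1). In the other classes the counts of 0 or 1 for loss of Clec7a became 42 to 179 without the filter, those for the difference 57 and 55, and with DESeq2 all were at most 5.

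Replicate numbers were not taken as pairs: of 13 pairs with the same number 7 correlated above 0.1, from -0.31 to 0.65 over 7804 genes. Pairs with different numbers ranged from -0.75 to 0.71. Values were centred on the mean of each small group, which itself shapes these correlations, so the check cannot decide on pairing. A replicate block moved the counts in border-associated macrophages to 16 and 26 and changed no member's call. Mean levels by class moved beyond 1 SD in 9 cases and not in the other 144 checked. With doublets kept the endothelial CPM of Cd68 went from 19.0 to 117, Msr1 from 0.383 to 3.44, Cd36 from 0.270 to 0.963 and Colec12 from 6.87 to 9.47. At resolution 0.5 Stab1 in border-associated macrophages went from 642 to 420.5. In fibroblasts means over libraries with at least 10 cells, 2 libraries as reported and 3 at resolution 0.5, went from 31.7 to 159 for Cd68, from 172 to 124 for Scarb2 and from 0 to 4.61 for Scarb1, while pooled levels went from 164.1 to 174.7, from 130.5 to 130.5 and from 15.82 to 15.36. The 93 fibroblasts reported were taken from the fibroblast cluster at resolution 0.5, which held 96 cells. Their pooled levels are therefore close by construction and do not check the clustering. Colec12 in fibroblasts went from 808 to 974 as a mean over cells. Shares of cells with a UMI moved beyond 1 SD in 30 cases, and not in 6, when cells were taken as counted and not thinned. The causes were not tested.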
